A study of Mus musculus with 6 samples.

Results

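Neat1, Malat1 and 4 genes for paraspeckle proteins (Sfpq, Nono, Pspc1 and Rbm14) were followed through 24 hr of TNFα in mouse embryonic fibroblasts. They were picked by symbol from a table of 27794 RefSeq transcript entries for 21837 gene symbols, and each of the 6 genes has 1 entry in it. Because levels in these same libraries were known when the genes were picked, their levels and ratios are given as a description and carry no test. The cells were primary wild type MEFs of the mixed strain C57BL/6x 129, taken from embryos of 13.5 days and used after 4 passages. In the methods of the study, littermate embryos gave its wild type and RelA−/− MEFs, and the libraries here are of wild type cells. Poly(A)-selected RNA was sequenced from untreated cells and from cells given TNFα at 20 ng/ml for 1.5, 6 or 24 hr, with 1 library for each time, so every change below is a difference between 2 libraries with no replicate check. H3K4me3, the histone mark of active promoters, was profiled in untreated cells from 1 ChIP-seq library set against 1 library of input. The labels name no transgene or deletion in any group, and primary MEFs are a mixed culture of embryo cells and not a clone.

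Neat1 and Malat1 are neighbouring genes for abundant long noncoding RNAs that stay in the nucleus. Neat1 is the scaffold of paraspeckles, nuclear bodies that form around its long isoform and hold back certain proteins and RNAs, while Malat1 gathers at nuclear speckles, which store splicing factors. Sfpq, Nono and Pspc1 make up the DBHS family of RNA-binding proteins, which pair with one another and coat Neat1 RNA, and Rbm14 bridges paraspeckle subunits through a prion-like domain. In bulk RNA, fewer cells with a transcript and less of it in each cell cannot be told apart.

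Levels are given as RPKM, reads per kilobase of transcript scaled to the mapped reads of the library, which divides out the transcript length. The length used for Neat1 is not given in the sources used here and its annotated forms differ widely, so its level against other genes, its rank and its coverage depend on that length, while its changes over time do not. Each library has 2 deposited columns, R1 and R2, whose meaning the sources used here do not give. They are columns of 1 library and not replicates, and over tested genes they differed by a median of 0.07 to 0.13 on the log2 scale. The deposited values of the 6 hr library summed to 0.548 times those of the untreated library, and the median gene had log2 ratios of 0.44, -0.74 and 0.10 after 1.5, 6 and 24 hr. Ratios are therefore given as deposited, beside those of all genes and after rescaling. Nfkbia, a direct NF-κB target read as a check of the treatment, was at 3.73 RPKM untreated and at 84.2, 31.0 and 67.4 RPKM after 1.5, 6 and 24 hr. Of 9 fibroblast markers, 8 averaged above 1 RPKM. The 5 leukocyte markers summed to 11.4 RPKM untreated, 14.9 at 1.5 hr, 3.91 at 6 hr and 6.22 at 24 hr, against 1118, 1160, 525 and 703 RPKM for the fibroblast markers, and 2 of the 5 averaged above 1 RPKM, the macrophage-associated Cd68 at 5.67 and Csf1r at 2.32, while the pan-leukocyte Ptprc averaged 0.203. None of the endothelial, epithelial or muscle markers averaged above 1 RPKM, with Epcam and Myod1 at 0 throughout, and of 2 neural markers Tubb3 averaged 1.48 RPKM. The part of other cells in the results was not tested.

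The Neat1 and Malat1 genes lie on the minus strand of chromosome 19 in the mm9 build, Neat1 at chr19:5824708-5845478 and Malat1 at chr19:5795690-5802671, with 22036 bp between them. The annotation gives Neat1 a single-exon form of 20771 bp and a shorter form, Neat1-002, of 3004 bp in 2 exons, and gives Malat1 a single-exon form of 6982 bp. The Malat1 promoter is shown as the start of the more abundant RNA, from 250 bp before to 50 bp after the annotated start, read 5′ to 3′ along the gene, at chr19:5802622-5802921. Capitals mark TGACG, a part of the cAMP response element, on either strand.
Malat1 promoter: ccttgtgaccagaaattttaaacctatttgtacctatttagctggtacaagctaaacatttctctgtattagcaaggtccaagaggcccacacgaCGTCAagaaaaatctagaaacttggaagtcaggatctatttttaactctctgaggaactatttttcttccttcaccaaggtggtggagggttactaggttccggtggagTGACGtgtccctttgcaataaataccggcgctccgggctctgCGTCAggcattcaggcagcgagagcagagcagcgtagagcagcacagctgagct
TGACG occurs 3 times in this window, at -155, -46 and -4 relative to the start. At least 1 copy is in 24.1% of 20819 promoter windows of the same length and 3 or more are in 1.47%. These 5 letters were picked after the sequence was read. GGGNNNNNCC, a loose form of the NF-κB site held by 56.0% of windows, the AP-1-like TGANTCA, in 6.95%, and the full element TGACGTCA, in 2.36%, were not found in it, while the Nfkbia and Sfpq windows hold 2 matches each to GGGNNNNNCC. GC content was 47.0% in the Malat1 window, beside a median of 56.0% over all windows.

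The 3′ ends of both RNAs bear on what poly(A) selection captures. Malat1 is cut by RNase P upstream of a tRNA-like small RNA, and its stable end rests on a genomically encoded run of A rather than on an added tail. The short Neat1 form ends at a conventional poly(A) signal, whereas the long form ends like Malat1. The Malat1 window, chr19:5795918-5796089, has its run of 12 A (5795988 to 5795999) in capitals, and the Neat1 window around the end of Neat1-002, chr19:5842277-5842396, has the signal AATAAA in capitals.
Malat1 3′ end: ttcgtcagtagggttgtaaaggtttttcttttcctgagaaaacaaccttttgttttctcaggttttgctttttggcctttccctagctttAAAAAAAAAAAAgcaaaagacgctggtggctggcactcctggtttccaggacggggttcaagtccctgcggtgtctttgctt
Neat1 3′ end: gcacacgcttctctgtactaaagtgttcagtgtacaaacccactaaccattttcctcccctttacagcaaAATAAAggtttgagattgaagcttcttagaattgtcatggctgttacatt
The run of A stands 298 bp inside the annotated end of Malat1. AATAAA ends 14 bp before the annotated end of Neat1-002. One value is deposited for each gene, so the 2 Neat1 forms were not measured apart, and the poly(A) tails of the RNAs were not measured.

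Neat1, listed as NR_003513, was high in the untreated and 6 hr libraries and about 5-fold lower in the 1.5 hr and 24 hr libraries. Its R1 and R2 values were 97.5 and 96.1 RPKM untreated, 20.1 and 20.2 at 1.5 hr, 92.6 and 86.7 at 6 hr, and 19.9 and 19.5 at 24 hr. The means, from the highest, were 96.8 untreated, 89.7 at 6 hr, 20.1 at 1.5 hr and 19.7 at 24 hr. No column of the high pair of libraries overlapped with one of the low pair. Within each pair the Neat1 columns of different libraries did not overlap either, but the gaps were small: 0.11 on the log2 scale between untreated and 6 hr, and 0.03 between 1.5 and 24 hr. The median gene differed by 0.13 between R1 and R2 of the 6 hr library and by 0.07 between those of the 1.5 hr library, so the order within each pair was not resolved.

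Relative to untreated cells, Neat1 stood at -2.27, -0.11 and -2.30 on the log2 scale after 1.5, 6 and 24 hr, and the 1.5 hr value was -2.28 from the R1 columns and -2.25 from the R2 columns. The untreated level was thus 4.81 times that at 1.5 hr and 4.93 times that at 24 hr. At 1.5 hr 0.603% of the 6796 genes with an average RPKM above 1 (41 genes) had a lower log2 ratio than Neat1, and at 24 hr 1.15% (78 genes). At 6 hr 83.6% of genes were lower than Neat1. By level, Neat1 ranked 125 among all genes untreated, 696 at 1.5 hr, 65 at 6 hr and 574 at 24 hr. These ranks, like ratios between genes of one library, do not move when a library is rescaled.

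Malat1, listed as NR_002847, followed Neat1 in outline at a higher level and with smaller folds. Its R1 and R2 values were 507 and 496 RPKM untreated, 169.9 and 170.2 at 1.5 hr, 350.4 and 324 at 6 hr, and 153.9 and 150.0 at 24 hr. The means, in falling order, were 501.5 for the untreated, 337 for the 6 hr, 170.1 for the 1.5 hr and 152.0 for the 24 hr library, and no columns of different libraries overlapped. The closest neighbours in this order, 1.5 and 24 hr, were 0.16 apart on the log2 scale, beyond the median gap between columns as deposited. Every rescaling turned this pair around, for example to -1.97 and -1.78 relative to untreated by the median of ratios, so which of them was lower depended on the scaling. Its log2 ratios were -1.56, -0.57 and -1.72 after 1.5, 6 and 24 hr, so the untreated level was 2.95, 1.49 and 3.30 times that of the treated libraries. Genes with a lower log2 ratio than Malat1 made up 2.68, 61.5 and 3.19% of the tested genes at these times. Among RefSeq entries of noncoding transcripts, Malat1 ranked 2 untreated, 10 at 1.5 hr, 2 at 6 hr and 8 at 24 hr. These noncoding entries include noncoding variants of coding genes, such as that of Srsf3.

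**Figure D1:**
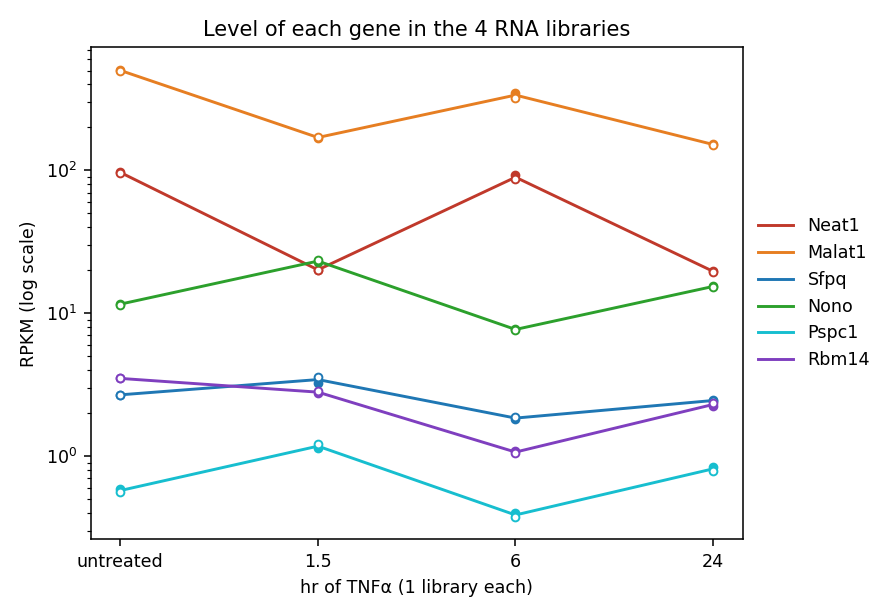
RPKM (log scale) of the 6 genes in the 4 RNA libraries, untreated and after 1.5, 6 and 24 hr of TNFα. Filled points are the R1 column, open points the R2 column of the same library and lines join their means; Neat1 goes from 96.8 to 20.1, 89.7 and 19.7 RPKM and crosses below Nono at 1.5 hr.

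Malat1 exceeded Neat1 by a factor that itself changed with time. Malat1 was 5.18 times Neat1 in the untreated library (5.20 in R1, 5.16 in R2), and after 1.5, 6 and 24 hr it was 8.45, 3.76 and 7.73 times Neat1. The ratio was therefore highest in the libraries where both RNAs were low. Both RNAs were deeply covered, and in the untreated library Malat1 made up 0.596% and Neat1 0.115% of all summed values. The mean coverage per base of Neat1 was 357 untreated and 77.4 at 1.5 hr, and that of Malat1 was 1849 and 654.

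Whether the 6 hr library lay below or above the untreated one depended on the scaling. Dividing each library by the sum of its values, by a median of ratios over all or over coding genes, or by a trimmed mean put Neat1 at 6 hr between 0.62 and 0.76 on the log2 scale and Malat1 between 0.16 and 0.29, both above the untreated library. At 1.5 and 24 hr no scaling brought either RNA within 2-fold. Over all scalings, the deposited one included, Neat1 ranged from -2.70 to -2.27 at 1.5 hr and from -2.37 to -2.23 at 24 hr, and Malat1 from -2.0 to -1.56 and from -1.79 to -1.66.

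**Figure D2:**
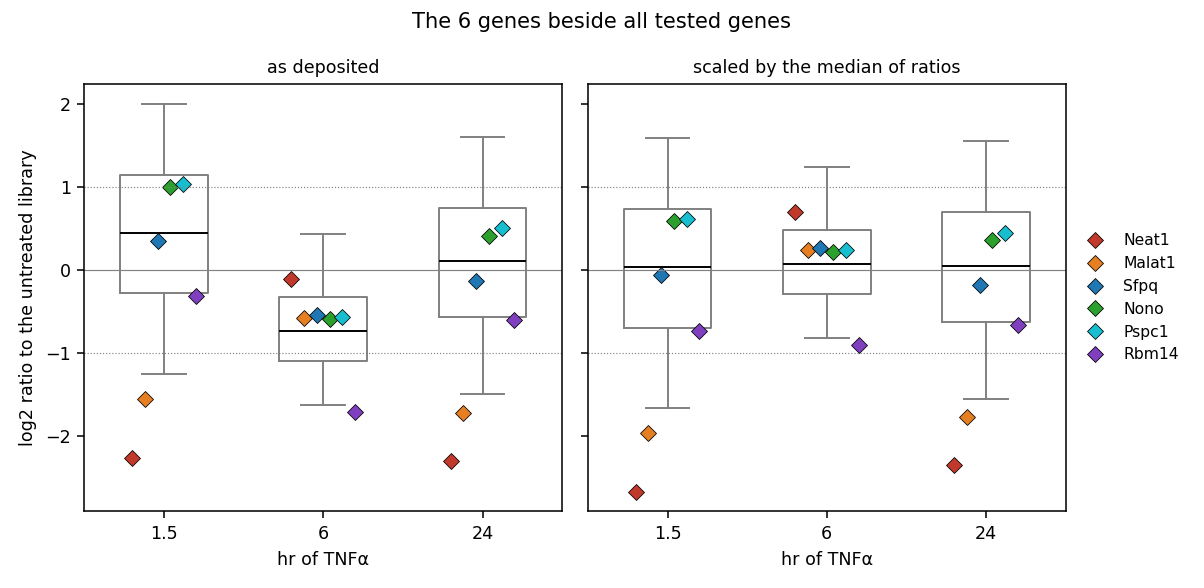
log2 ratio to the untreated library at 1.5, 6 and 24 hr of TNFα, as deposited (left) and after scaling by the median of ratios (right). Diamonds are the 6 genes; boxes hold the middle of the 6796 genes with an average RPKM above 1 from the lower to the upper quartile, with the median as a line and whiskers from percentile 5 to 95. Neat1 and Malat1 lie below the whiskers at 1.5 and 24 hr in both panels, and at 6 hr Neat1 is the highest of the 6 genes.

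The log2 ratios moved with the GC content of transcripts across the whole table, which bears on a comparison of Neat1 with Malat1. In the twentieth of tested genes with the lowest GC content the median was 1.41 on the log2 scale after 1.5 hr and 1.00 after 24 hr, and in the twentieth with the highest it was -0.75 and -1.01. At 6 hr these medians were -0.08 and -0.89. Malat1 has a GC content of 42.5%, below that of all but 5.99% of tested genes, and Neat1, read on Neat1-002, has 51.1%, near the median of 52.5%. Malat1 was low at 1.5 and 24 hr, where the median gene of its GC bin stood at 1.29 and 0.87. Of the 334 genes in the GC bin of Malat1, 1 had a lower log2 ratio at 1.5 hr and 1 at 24 hr, and of the 334 in the bin of Neat1, 3 at either time. Measured from the median of its own bin, Neat1 stood at -2.87 and Malat1 at -2.85 at 1.5 hr, and at -2.55 and -2.59 at 24 hr. The gap between the 2 RNAs in the deposited ratios, 0.71 at 1.5 hr and 0.58 at 24 hr, was thus nearly absent on this scale. At 6 hr the bin-centred values were 0.69 for Neat1 and -0.35 for Malat1. GC content was found for 98.4% of tested genes but for 78.1% of tested noncoding ones, too few for a reading within the noncoding class, and the part of GC content in the results was not tested.

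**Figure D3:**
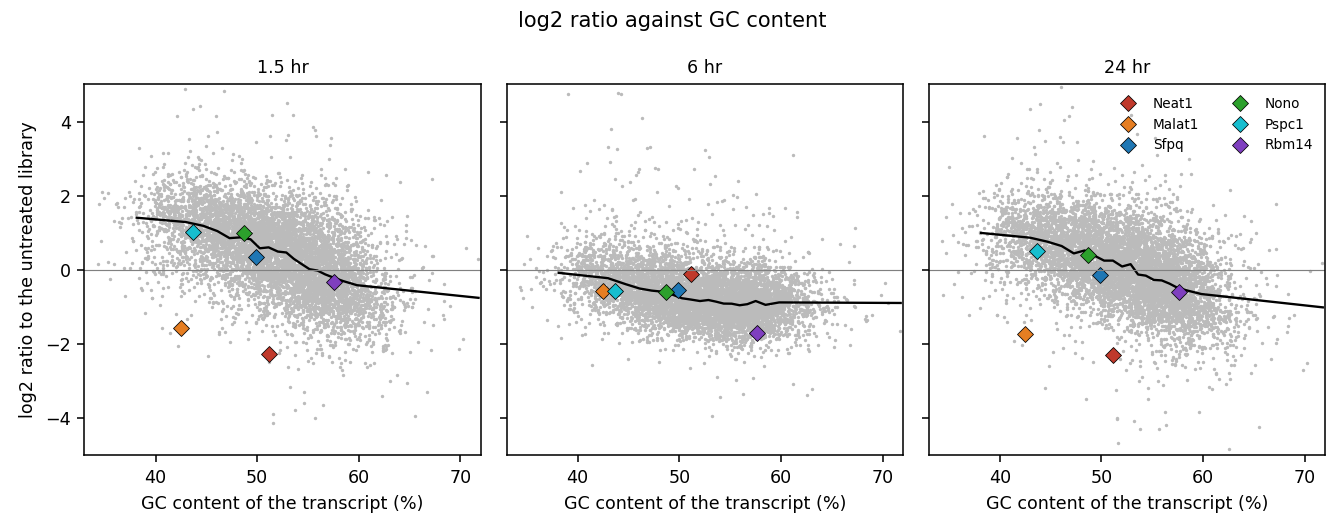
log2 ratio to the untreated library against the GC content of the longest annotated transcript (percent; Neat1-002 for Neat1) at 1.5, 6 and 24 hr of TNFα. Grey points are tested genes, the black line joins the medians of 20 bins of equal gene number and diamonds are the 6 genes; a few genes lie outside the axes, and Malat1 lies near the lower edge of the points of its GC content at 1.5 and 24 hr.

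The genes most like each RNA were found by the distance between their 3 log2 ratios and those of Neat1 or Malat1, over 4 libraries and 6791 candidates. Nearest to Neat1 were Tnni3 at a distance of 0.118, Plac9 at 0.128, Il3ra at 0.291, Cep250 at 0.334 and Nckap5l at 0.348. Plac9 was at 22.3 RPKM untreated, 4.72 at 1.5 hr, 21.4 at 6 hr and 4.91 at 24 hr. Nearest to Malat1 were 2310003H01Rik at 0.0674, Smarcd3 at 0.0938, Tenc1 at 0.103, Solh at 0.107 and Cc2d1a at 0.124. All 10 are coding genes with a higher GC content than the RNA they resemble, from 52.1 to 65.1% for those near Neat1 and from 59.0 to 61.0% for those near Malat1. Malat1 itself lay 1.02 from Neat1, farther than 101 other genes but well inside the median distance of 3.75. Seen from Malat1, 512 other genes lay nearer than Neat1.

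The DBHS mRNAs were highest at 1.5 hr as deposited, which for Nono and Pspc1 but not for Sfpq held after rescaling. Nono (NM_023144) was the most abundant, with R1 and R2 values of 11.7 and 11.5 RPKM untreated, 23.0 and 23.4 at 1.5 hr, 7.80 and 7.60 at 6 hr, and 15.5 and 15.4 at 24 hr. Pspc1 (NM_025682) kept the same order at low level, with 0.592 and 0.556 RPKM untreated, 1.13 and 1.21 at 1.5 hr, 0.399 and 0.375 at 6 hr, and 0.843 and 0.785 at 24 hr. For both genes the columns of different libraries did not overlap. Sfpq (NM_023603) varied least, at 2.68 and 2.69 RPKM untreated, 3.27 and 3.60 at 1.5 hr, 1.82 and 1.87 at 6 hr, and 2.45 and 2.45 at 24 hr. Pspc1 averaged 0.737 RPKM, under the minimum of 1, and its mean coverage per base was 1.25 to 4.51, so its folds are the least precise.

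Nono had log2 ratios of 1.00, -0.59 and 0.41 after 1.5, 6 and 24 hr, and the first was 0.98 from the R1 columns and 1.03 from the R2 columns. Pspc1 had 1.03, -0.57 and 0.50 at the same times, and Sfpq had 0.36, -0.54 and -0.13. After the 4 rescalings Nono at 1.5 hr was between 0.56 and 0.75 and Pspc1 between 0.60 and 0.79, both under 2-fold, while all 3 genes were above the untreated library at 6 hr (0.15 to 0.28 for Nono). Sfpq ranged from -0.08 to 0.11 at 1.5 hr and from 0.20 to 0.33 at 6 hr after rescaling, so it was then highest at 6 hr. In their GC bins, Nono at 1.5 hr stood 0.12 above the bin median, Sfpq at -0.23 and Pspc1 at -0.26, and 54.9% of the genes in the bin of Nono had a lower ratio than Nono.

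Nono and Pspc1 kept a near-constant proportion in the deposited values, which no scaling of a library affects but centring by GC content does. Nono was 20.2 times Pspc1 untreated, and 19.8, 19.9 and 18.9 times Pspc1 after 1.5, 6 and 24 hr. Measured from the medians of their GC bins at these 3 times, Nono stood at 0.12, -0.0008 and -0.11 and Pspc1 at -0.26, -0.35 and -0.36. Nono over Sfpq was 4.32 untreated, and 6.76, 4.17 and 6.29 in the treated libraries in order of time. The ratio of Neat1 RNA to the DBHS mRNAs differed between libraries. Neat1 over Nono was 8.36 untreated (8.35 in R1, 8.36 in R2), 0.868 at 1.5 hr, 11.6 at 6 hr and 1.28 at 24 hr. Neat1 over Sfpq was 36.1, 5.86, 48.6 and 8.02 at these times. Summed, the 3 DBHS genes had 14.8 RPKM untreated, 27.8 at 1.5 hr, 9.93 at 6 hr and 18.7 at 24 hr.

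Rbm14 (NM_019869) was lowest at 6 hr. Its R1 and R2 values were 3.49 and 3.50 RPKM untreated, 2.76 and 2.85 at 1.5 hr, 1.09 and 1.05 at 6 hr, and 2.25 and 2.34 at 24 hr, with no overlap of columns between libraries. Its log2 ratios at the 3 times were -0.32, -1.71 and -0.61, and at 6 hr 3.78% of tested genes were lower. After rescaling the 6 hr value was between -0.98 and -0.85, under 2-fold. Of the 334 genes in its GC bin, 9 were lower at 6 hr. The ratio of Neat1 to Rbm14 was 27.7 untreated, 7.18 at 1.5 hr, 84.1 at 6 hr and 8.55 at 24 hr.

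By the criterion of an average RPKM above 1 and at least a 2-fold difference from the untreated library, 5 of the 6 genes could be counted, since Pspc1 lay under the minimum. At 1.5 hr 1 of 5 was higher (Nono) and 2 were lower (Neat1 and Malat1), where 29.8% of the 6796 genes were higher and 8.4% lower. At 6 hr none was higher and 1 was lower (Rbm14), beside 1.78% and 31.5% of all genes. At 24 hr none was higher and 2 were lower (Neat1 and Malat1), beside 16.9% and 13.2%. Nono was just inside the threshold at 1.00 on the log2 scale, and in R1 alone it was just outside. After scaling by the median of ratios the shares of all genes became 16.9% higher and 16.9% lower at 1.5 hr, 8.56% and 2.52% at 6 hr, and 15.6% and 14.5% at 24 hr, and of the 6 genes only Neat1 and Malat1 at 1.5 and 24 hr stayed past 2-fold. Among the 256 noncoding entries, the shares at least 2-fold lower were 23.8, 29.7 and 28.1% at the 3 times, and those at least 2-fold higher were 28.5, 2.73 and 19.1%. A level at least 2-fold lower at both 1.5 and 24 hr, as in Neat1 and Malat1, was found in 7.53% of the 6796 genes, and in 4.65% without one at 6 hr. A 6 hr level above both the 1.5 and the 24 hr level was found in 11.7%. The genes were picked with these levels known, so nothing is read from their counts against these shares.

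Of 28 other genes for paraspeckle proteins, 26 passed the minimum. At 1.5 hr 8 of them were at least 2-fold higher and 0 lower, beside 29.8% and 8.4% of all genes. The count of higher genes was near that share, and the median log2 ratio was 0.53 beside 0.44 over all genes. With log2 ratios centred by GC content, the count of higher genes at 1 or more times went from 8 to 2. At 6 hr 0 were higher and 5 lower, among them Ewsr1, Rbm12, Rbmx and Ubap2l, beside 1.78% and 31.5% of all genes, with a median of -0.66 beside -0.74. At 24 hr 5 were higher and Cirbp, a cold-inducible RNA-binding protein, was lower at -1.26, beside 16.9% and 13.2% of all genes, with a median of 0.02 beside 0.10. The list thus lay near the median of all genes at each time. Its largest ratio belonged to Nudt21, the small subunit of the CFIm factor that guides the processing of Neat1 3′ ends, with 1.13 RPKM untreated, 5.13 at 1.5 hr, 1.37 at 6 hr and 3.74 at 24 hr. Its partner Cpsf6 had log2 ratios of 0.04, -0.72 and -0.28. Hnrnpk, which competes with CFIm at the Neat1 poly(A) site, was at 5.09 RPKM untreated, 16.7 at 1.5 hr, 4.91 at 6 hr and 11.7 at 24 hr.

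As deposited, other paraspeckle genes given here lay within 2-fold of the untreated library at 1.5 hr. Scaling by the median of ratios lowers every log2 ratio at 1.5 hr by 0.41, which takes Dazap1 past 2-fold lower. Dazap1 had log2 ratios of -0.67, -0.92 and -0.81 at the 3 times, and Smarca4, the ATPase of SWI/SNF complexes, had -0.38, -0.98 and -0.77. Hnrnpa1 had 0.24, -0.71 and -0.35. Tardbp, the gene for TDP-43, had 0.90, -0.48 and 0.61. Hnrnph3 averaged 0.873 RPKM, under the minimum, with 0.02, -0.92 and -0.54. After scaling by the median of ratios, 6 of the 26 counted genes of the list were higher and 2 lower at 1.5 hr. The shares of all genes were then 16.9% and 16.9%. At 6 hr 1 was higher and 0 lower, beside 8.56% and 2.52% of all genes. At 24 hr 5 were higher and 1 lower, beside 15.6% and 14.5%.

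Nuclear speckle genes, the neighbourhood of Malat1, were counted in the same way, and 19 of 20 passed the minimum. At 1.5 hr 7 were at least 2-fold higher and 1 lower, at 6 hr 0 and 1, and at 24 hr 3 and 1, where the shares of all genes were 29.8% and 8.4%, 1.78% and 31.5%, and 16.9% and 13.2%. The medians of the list were 0.28, -0.27 and 0.16, beside 0.44, -0.74 and 0.10 over all genes. Srrm2, a large scaffold protein of speckles, was the lower gene at 1.5 and 24 hr and had the order of levels seen in Malat1 as deposited, with 48.2 RPKM untreated, 21.0 at 1.5 hr, 40.5 at 6 hr and 20.1 at 24 hr. Son, the other large speckle scaffold, was within 2-fold at every time, with log2 ratios of -0.18, -0.64 and -0.18. The splicing factor Srsf1 was at 0.784 RPKM untreated and 2.27 at 1.5 hr (1.53 on the log2 scale), and Srsf2 at 5.39 and 11.3 RPKM (1.07). After scaling by the median of ratios 3 genes of the list were higher and 1 lower at 1.5 hr, beside 16.9% and 16.9% of all genes.

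H3K4me3 in untreated cells was read at the start of each gene, a measure that took no part in picking them. Of the 11157 deposited peaks, 1 covered the annotated start of each of the 6 genes. In the looser window of 1 kb around the start all 6 genes had a peak, and so did 87.7% of 6582 tested genes with a known start. Pspc1, under the minimum level, is not among those tested genes. The FDR of all 6 peaks was 0.03%. The peak at Neat1, chr19:5836574-5851331, was 14758 bp long, rank 13 by length, with 4241 tags (rank 34) and a fold enrichment over input of 76.02 (rank 1764). It reached from 5853 bp upstream of the start to 8904 bp into the gene and covered 42.9% of it. Its upstream part runs over the 3′ end of the neighbouring gene Frmd8, annotated at chr19:5849702-5875274.

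The peak at Malat1, chr19:5793692-5804905, stood apart in both length and height. It was 11214 bp long (rank 47), with 5391 tags (rank 9) and a fold enrichment of 180.99 (rank 5), where the median peak had 3187 bp, 1049 tags and a fold enrichment of 45.45. It covered the whole gene, from 2234 bp upstream of the start to beyond the annotated end. Peaks longer than 10 kb made up 0.807% of all, and both RNAs had one. No peak lay in the 31668 bp between them.

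The protein genes had shorter peaks. Sfpq had 5989 bp, 2696 tags and a fold enrichment of 89.49. Rbm14 had 5631 bp, 2269 tags and 51.37, and Pspc1 had 3787 bp, 1597 tags and 70.22. Nono, the most abundant of the 4 as RNA, had the lowest peak, with 3537 bp, 795 tags and a fold enrichment of 29.48 at rank 9156. Nono lies on the X chromosome, at chrX:98624657-98643930. Sfpq is at chr4:126698568-126714257, Pspc1 at chr14:57341278-57397153 and Rbm14 at chr19:4784299-4811634.

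**Figure D4:**
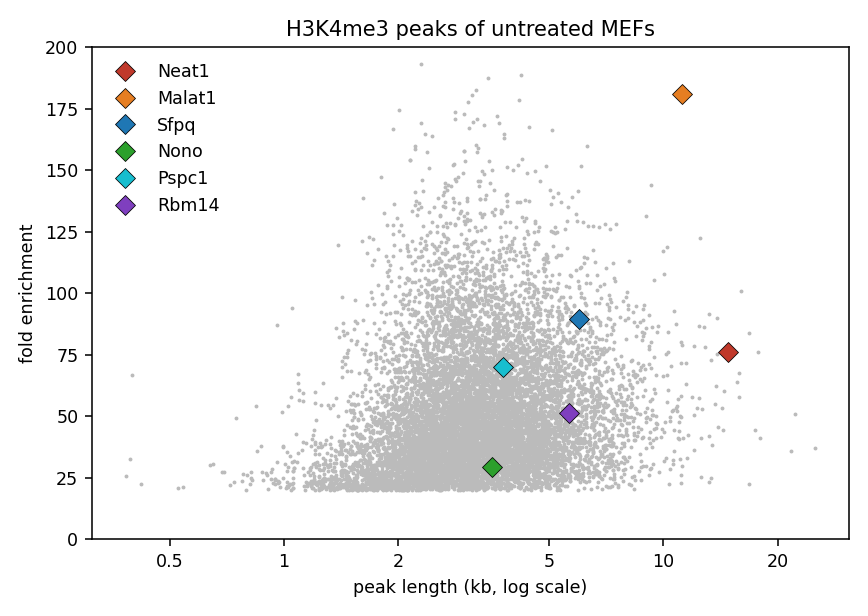
Fold enrichment over input against length (kb, log scale) of the 11157 H3K4me3 peaks of untreated MEFs in grey, with the peaks at the 6 genes as diamonds. Malat1 combines 11214 bp with a fold enrichment of 180.99, Neat1 has 14758 bp at 76.02, and the peak of Nono is near the lower edge at 29.48.

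**Figure D5:**
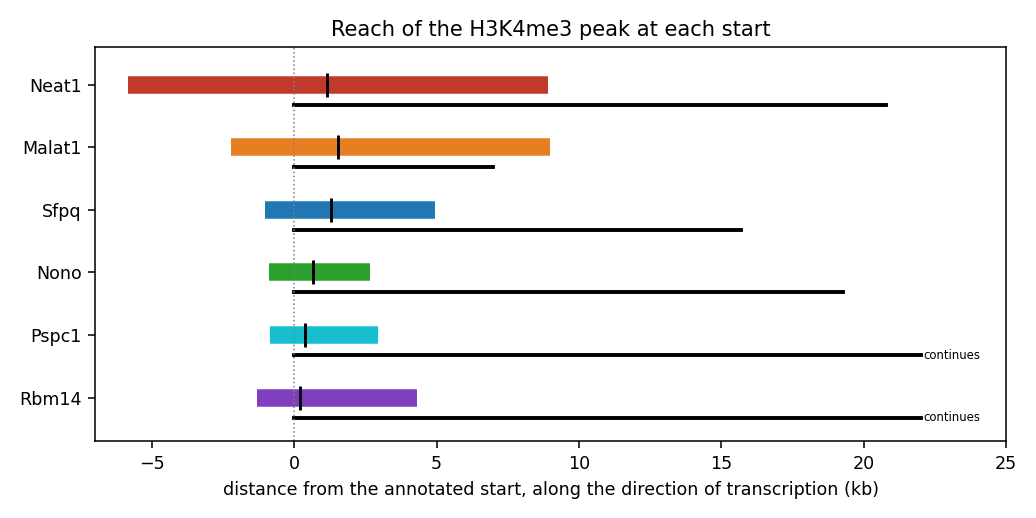
Extent of the H3K4me3 peak (coloured bar) and of the annotated gene (black line) along the direction of transcription, in kb from the annotated start (dotted line) for the 6 genes. The vertical tick is the summit; the genes of Pspc1 and Rbm14 continue past the right end of their lines, and the peak of Malat1 extends past the end of its gene.

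The position of Neat1 and Malat1 next to each other was set beside their other neighbours. Of 6 further genes in the table within 60000 bp, 4 passed the minimum, and 3 of them are given here. Frmd8, next upstream of Neat1, had log2 ratios of 0.64, -0.50 and 0.17 at 1.5, 6 and 24 hr. Dpf2 had 0.12, -0.82 and -0.31. Ltbp3, which encodes a protein that binds latent TGF-β, had -0.92, -0.89 and -1.69. Ltbp3 was at 11.2 RPKM untreated and at 5.93, 6.04 and 3.47 RPKM after 1.5, 6 and 24 hr. As deposited, its 6 hr level thus lay near its 1.5 hr level, unlike those of Neat1 and Malat1. Scaling by the median of ratios subtracts 0.41 at 1.5 hr and -0.81 at 6 hr from every log2 ratio. That raises the 6 hr level of Ltbp3 further above its 1.5 hr level, the direction seen in Neat1 and Malat1, so the nearness depended on the scaling. Malat1 had -1.56, -0.57 and -1.72 as deposited, close to Ltbp3 at 24 hr. No difference in pattern between Ltbp3 and Malat1 is read from these values. These neighbours were picked by position after the table was read.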

How the data were processed

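RNA of untreated MEFs and of MEFs after 1.5, 6 and 24 hr of TNFα was measured with 1 library each. Per the labels and the methods of the study, reads of poly(A) RNA (paired-end, strand-marked) were mapped to mm9 with TopHat. The authors deposited RPKM per RefSeq transcript, with 2 columns (R1 and R2) per library, on a scale of its own. It was divided here by 1 factor of 85.6, the median ratio to the RPKM the study lists for coding transcripts (5210 values, 83.5 to 89.9 by library), which changes no ratio. Columns were tied to times through the numbering of libraries in the study's supplement. One field of the 24 hr label holds ChIP extraction text, but the sample is titled, treated and sourced as RNA. ChIP-seq reads were mapped with Bowtie and peaks called with MACS on 1 library against input, and the deposited peak list gives tags as a count, a p-value turned into a score, an enrichment fold (a ratio to input), an FDR in percent and a signal per length (tags over length, not used here).

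A library's level was the mean of R1 and R2, 1 entry per symbol (highest mean), with no pseudocount. Genes with an average RPKM above 1 were counted at 2-fold, as the study did. No test was made, with 1 library per time. Total reads are not in the table used. Coverage came from the worth of 1 base, taken as the largest unit of which most low values were whole multiples. By that unit 94.7 to 98.9% of low values were whole within 0.02. The choice of unit largely sets this share, so it is no check. A base was worth 0.839 to 1.17 times its worth in the untreated R1 column. The mm9 genome with its GENCODE annotation gave starts, promoters and transcript GC content (longest transcript, Neat1-002 for Neat1). Genes were named by role, and for each RNA the 5 nearest by pattern. The genes and lists were chosen with earlier results of these data known. Alternatives were 4 scalings, GC centring, a pseudocount of 1 RPKM, single columns, other thresholds and peak windows. The count steps were tested on simulated data. All value columns were used (0 unmapped). Python 3.11.15, numpy 2.4.6 and pandas 2.3.3 were used. A few single results of the named genes are not reported here.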

Additional observations from a re-analysis of the deposited data

Results flagged for a closer look

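The DBHS genes lay on opposite sides of the untreated library at different times, in both columns. For Sfpq the log2 ratio was 0.36 at 1.5 hr against -0.54 at 6 hr and -0.13 at 24 hr. For Nono it was 1.00 at 1.5 hr and 0.41 at 24 hr against -0.59 at 6 hr. For Pspc1 it was 1.03 at 1.5 hr and 0.50 at 24 hr against -0.57 at 6 hr. These differences were not tested, the times share 1 untreated library, and none of them kept opposite signs under every scaling.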

How the results depend on the processing

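With 1 library per time no value has an error across cultures, and the ratios of the 3 times share the untreated library. A log2 ratio was counted as moved when it left the range its R1 and R2 columns give, and a count of genes or peaks when it changed by over 1.5 times. Of 144 alternatives for log2 ratios, 40 stayed, 103 moved and 1 turned a value past 2-fold to the other sign. That was Pspc1 at 1.5 hr, at -0.26 within GC bins. The alternatives with R1 or R2 alone stay by this definition and make up most of the 40, so these are no check. Of 75 for counts, 36 stayed and 39 moved. The cause of the moves was not tested. No paired analysis was possible because each time has 1 library. The mean over all entries of a gene could not differ, since each gene has 1 entry. Neat1 and Malat1 kept their direction at 1.5 and 24 hr under every alternative.

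Log2 ratios are given for 1.5, 6 and 24 hr in turn. Scaled to the sum of values, Neat1 had -2.51, 0.76 and -2.23 and Malat1 -1.81, 0.29 and -1.66. By the median of ratios, Neat1 had -2.68, 0.70 and -2.35 and Malat1 -1.97, 0.24 and -1.78. By the median over coding transcripts, Neat1 had -2.70, 0.69 and -2.37 and Malat1 -2.0, 0.23 and -1.79. By the trimmed mean, Neat1 had -2.62, 0.62 and -2.32 and Malat1 -1.92, 0.16 and -1.74. Within GC bins, Neat1 had -2.87, 0.69 and -2.55 and Malat1 -2.85, -0.35 and -2.59. With a pseudocount, Neat1 had -2.21 at 1.5 hr and -2.24 at 24 hr, and Malat1 -1.72 at 24 hr.

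The count of 1 gene (Nono) at least 2-fold higher went to 0 under the 4 scalings, GC centring, the pseudocount, R1 alone and a 3-fold threshold. Of all genes, 2115 were at least 2-fold higher at 1 or more times, and 1116 with GC centring, 1245 with the pseudocount, 901 at 3-fold and 6038 without the minimum. Lower were 2640, and 1102 by the sum, 1354 by the median of ratios, 1398 over coding transcripts, 1318 by the trimmed mean, 1046 with GC centring, 1244 with the pseudocount, 663 at 3-fold and 8479 without the minimum. Of paraspeckle proteins 8 were higher at 1 or more times, and 5 by the coding median, 2 with GC centring and 5 with the pseudocount. Of them 6 were lower, and 1 by the sum, 2 by each other scaling and 0 with the pseudocount. Of nuclear speckle genes 7 were higher, and 4 under each scaling, 2 with GC centring and 1 with the pseudocount. Of them 2 were lower, and 1 under each scaling and 7 with GC centring.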
